A study of Rattus norvegicus with 20 samples.

Results

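Untreated transgenic-AD and wild-type female rats of the genotype comparison are described here across every gene of their count table. The members were chosen by the group in the sample titles, which takes 10 of the 20 rats of the series, 5 wild-type rats (WTNT, wild-type not treated) and 5 transgenic rats (TGNT, transgenic-AD not treated). Both groups were females, 4 months of age, fed rodent chow without a drug. The study tested its rats in a radial arm maze, with food restricted, at the age when some were taken for RNA sequencing. The time between maze and tissue collection is not given, and the part of the maze and the restricted food in the values was not tested. WTNT rats carried no transgene. TGNT rats were of the TgF344-AD line, Fischer 344 rats with human APP bearing the Swedish mutation and with a further human transgene, driven by the prion promoter. As a model they are limited in that this promoter is active in many cell types and brain regions, and in that the TGNT rats belong to a single transgenic line. The tissue was 1 hippocampus per rat, with all of its subfields and cell types together. The labels name the left hippocampus and the methods of the study the right, and the values cannot tell which is correct.

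APP is a membrane protein of neurons that the beta- and gamma-secretases cleave to amyloid-beta. Hippocampal neurons that fire switch on immediate early transcription factors such as Egr1 and Nr4a1 within minutes, through serum response factor and CREB, and also effectors such as Arc, which acts at the synapse. Bulk RNA of the hippocampus also reports the make-up of the sample, since pyramidal cells, granule cells, interneurons, oligodendrocytes, astrocytes, microglia and vessels each add transcripts of their own.

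App mRNA was 2-fold higher in transgenic rats. Most other genes differed little, and several gene groups leaned in 1 direction. Egr2 was 2-fold lower and Hist1h2aa, a weakly read histone gene, was higher without overlap of the groups, and both passed the adjusted threshold with the exact and likelihood ratio tests of edgeR but not with its quasi-likelihood test, which is used throughout. Immediate early transcription factors, activity-dependent effectors, genes of the glucocorticoid response, pyramidal cell markers and myelin genes lay mostly lower in TGNT rats. Ribosomal proteins, respiratory chain subunits, histones, homeostatic microglia genes and receptors for acetylcholine and monoamines lay mostly higher. In several of these groups the WTNT rats differed among themselves by more than the genotypes did.

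Depth was similar in both groups. Estimated counts summed to 6178859, 9926088, 7791777, 5848458 and 6300653 in WTNT replicates 1 to 5 and to 8117561, 6610498, 7831894, 7413241 and 7860252 in TGNT replicates 1 to 5. A single read thus stood for 0.102 to 0.171 RPM, the scale of reads set to a common library total. Of 17168 genes in the table, 11357 had a mean of at least 10 counts, and the counts and medians below are over these unless all genes are named. Each gene was tested with the quasi-likelihood test of edgeR, and p-values were adjusted over all 17168 genes. A gene was called where the adjusted p was below 0.05 and the difference was 1.5-fold or more in either direction. Log2 fold changes are of TGNT over WTNT, so that positive values are higher in TGNT, and they come with a 95% confidence interval. Each rat gave 1 library, so p-values measure the spread between rats.

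The thresholds called 2 genes of 17168, which is 0.0116%, and both were higher in TGNT rats. Without adjustment a p under 0.05 was reached by 226 genes higher in TGNT (1.99% of 11357) and by 216 genes lower in TGNT (1.9%). Of these, 31 higher and 21 lower genes also differed 1.5-fold or more. Over the full table the same p was reached by 296 higher and 258 lower genes. That balance moved with single rats, to 180 higher without TGNT replicate 3 and 462 without WTNT replicate 5, and to 172 lower without WTNT replicate 2 and 567 without WTNT replicate 3. With DESeq2, which scales the libraries by its own size factors, the balance was 176 higher and 240 lower.

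The genome-wide shift was close to 0. The median log2 fold change was 0.0063, with the middle 50% of genes between -0.066 and 0.083 and the middle 95% between -0.30 and 0.35. A positive value was found for 5952 genes, or 52.4%, and a negative one for 5405. The sign of the median depended on the scaling and on single rats. It was -0.0036 with RLE factors, -0.0045 without TGNT replicate 2, -0.0037 without TGNT replicate 4, -0.0037 without WTNT replicate 4, -0.0029 without WTNT replicate 3, -0.0019 without TGNT replicate 3 and -0.0014 without TGNT replicate 5. Beyond a fold change of 1.5 in the estimate lay 51 genes higher and 42 lower.

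The shift depended on the level of the gene. The genes were divided by mean RPM into 4 groups of equal size. In the group of lowest level, from 1.29 to 9.53 RPM, the median log2 fold change was 0.034, and 72 genes were higher and 46 lower at an unadjusted p under 0.05. In the group of highest level, above 79.5 RPM, the median was -0.012, and 27 genes were higher and 67 lower. The 2 groups between them had medians of 0.019 and 0.0070, the latter at -0.0029 with RLE factors. The lowest group stayed positive and the highest negative with every scaling tried and with each rat left out. In the highest group the share of genes above 0 was 43.1%, against 56% in the lowest. Grouped by the span of the gene in the GRCr8 annotation, which was known for 98.2% of the 11357 genes, the medians ran from 0.019 in the shortest of 4 groups to -0.0021 in the longest, and the latter was 0.0084 when library size was the only scaling. Each of the 4 medians by span changed sign without at least 1 of the rats, the shortest to -0.0030, and the 2 between were -0.0029 and -0.0071 with RLE factors.

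**Figure D1:**
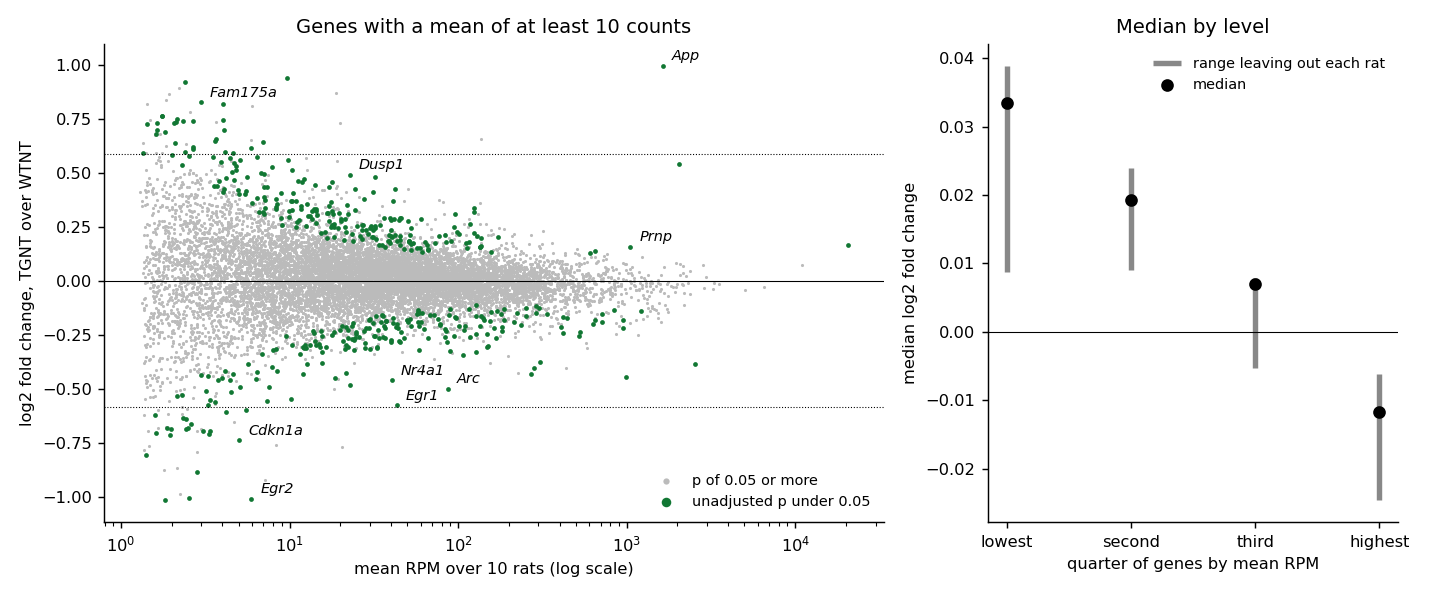
Log2 fold change of TGNT over WTNT against mean RPM of 10 rats (log axis) for genes averaging 10 or more counts, with genes at an unadjusted p under 0.05 in green and a fold change of 1.5 dotted (left), and the median log2 fold change in 4 groups of genes by mean RPM with its range when each rat is left out (right). App lies apart from the cloud at 1.00, and the medians go from 0.034 in the lowest group to -0.012 in the highest.

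These libraries were deep enough to bound most genes. The 95% interval lay within a fold change of 1.5 for 9513 of 11357 genes, or 83.8%, and within a fold change of 2 for 97.1%. The median width of the interval on either side of the estimate was 0.23 on the log2 scale, a factor of 1.17. In the group of lowest RPM it was 0.45, and 46.1% of the genes were bounded within 1.5, against 97.8% in the highest group. For a weakly expressed gene a difference of 1.5-fold could therefore go undetected at this depth.

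App was read at 1091, 1103, 1160, 1031 and 1123 RPM in WTNT replicates 1 to 5 and at 2364, 2227, 2202, 2071 and 2071 RPM in TGNT replicates 1 to 5. The lowest TGNT rat was far above the highest WTNT rat, and rats of a group differed little, so that the label of each rat fits its App level. Rat and human transcripts share this symbol, and how completely human reads were counted with the rat genome was not tested. The log2 fold change was 1.00 (0.88 to 1.11, adjusted p = 2.45e-07 with edgeR), higher in 5 of 5 TGNT rats. The summed level of the 23 genes of amyloid precursor processing, App among them, was 10.1% higher in TGNT rats. Group means of that sum were 8593 RPM in WTNT and 9463 RPM in TGNT rats. Those of App alone were 1101 and 2187 RPM. App thus differed by more than the whole sum did, and the other genes of the list together were lower in TGNT rats.

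The machinery that handles APP showed no such difference. Of the 23 processing genes in the table, 13 were higher and 10 lower, with a median log2 fold change of 0.01 that ran between -0.03 (without TGNT replicate 3) and 0.03 (without WTNT replicate 5) and was also negative without WTNT replicate 1, 2 or 4 and TGNT replicate 2 or 4. The intervals of 21 of them lay within a fold change of 1.5. Prnp, the gene of the prion protein whose promoter drives the transgenes, was at 1024, 970, 964, 963 and 1063 RPM in WTNT and at 1192, 1109, 1107, 1059 and 1070 RPM in TGNT rats. In 4 of 5 TGNT rats it was above the highest WTNT rat, and TGNT replicate 4 was just below it. Its log2 fold change was 0.16 (0.04 to 0.27, unadjusted p = 0.0102 and adjusted p = 1 with edgeR). Lower in TGNT rats at an unadjusted p under 0.05 were Aplp1, a relative of App (-0.14), and the sorting receptors Sort1 (-0.14) and Sorl1 (-0.22), which carry APP and neurotrophins between compartments. With 1 rat left out, the unadjusted p of edgeR went up to 0.105 for Aplp1, 0.0800 for Sort1 and 0.129 for Sorl1. Sorl1 was at 1156, 1168 and 1142 RPM in WTNT replicates 1, 2 and 4, at 840 and 813 RPM in WTNT replicates 3 and 5, and at 807 to 934 RPM in TGNT rats, so that the difference came from 3 of the WTNT rats.

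Immediate early transcription factors lay mostly lower in TGNT rats. Of the 24 genes of the list, 21 had a mean of at least 10 counts, and 14 of them were lower and 7 higher. At an unadjusted p under 0.05, 5 were lower and 0 higher, against 1.9% and 1.99% of all genes, and none passed the adjusted threshold with the quasi-likelihood test. For 4 of the 21 the TGNT rats lay without overlap below the WTNT rats, against 0.317% of all genes, and for 0 above them, against 0.335%. The median log2 fold change of the list was -0.14, from -0.18 without WTNT replicate 3 to -0.07 without TGNT replicate 3, and it was negative with every scaling tried. Summed over the list, the level was 823, 794, 800, 758 and 772 RPM in WTNT and 787, 770, 708, 672 and 687 RPM in TGNT rats. Nr4a3 was the most read member.

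Egr2, a zinc finger factor of the Egr family, was at 6.13, 8.59, 10.3, 8.36 and 6.37 RPM in WTNT and at 4.00, 3.77, 4.94, 2.14 and 4.86 RPM in TGNT rats. The highest TGNT rat was below the lowest WTNT rat, and TGNT replicate 4 was the lowest of all. With 16 to 84 counts in a rat the gene was weakly read, and its log2 fold change was -1.01 (-1.46 to -0.56, adjusted p = 1 with the quasi-likelihood test of edgeR). The call depended on the test, with an adjusted p of 0.0216 for the exact test of edgeR and 0.0168 for its likelihood ratio test. Egr1, its relative and a standard marker of recent firing, was at 47.7, 63.1, 61.1, 53.4 and 34.6 RPM in WTNT and at 36.1, 36.5, 27.6, 35.1 and 39.2 RPM in TGNT rats. Here WTNT replicate 5 lay among the TGNT rats, and the other 4 WTNT rats were above all of them. The log2 fold change of Egr1 was -0.58 (-0.87 to -0.28, unadjusted p = 0.000832 and adjusted p = 1 with edgeR), lower than the WTNT mean in 5 of 5 TGNT rats, and the two-sided exact permutation test of its group means gave p = 0.0397. That test was less favourable elsewhere. Of 70 genes besides App whose log2 fold change is given here and whose unadjusted p with edgeR was under 0.05, 49 had an exact permutation p under 0.05 and 21 did not, among them Arc (0.0794), Mbp (0.111), Dnajb5 (0.119), Klf9 (0.143), Calb1 (0.151) and Sorl1 (0.151).

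Of the Nr4a orphan nuclear receptors, Nr4a1 and Nr4a3 were lower at an unadjusted p under 0.05 and Nr4a2 was not. Nr4a1 was at 51.5, 56.2, 41.1, 49.5 and 36.8 RPM in WTNT and at 33.6, 36.8, 30.7, 34.3 and 35.3 RPM in TGNT rats. The groups met without overlapping, with WTNT replicate 5 and TGNT replicate 2 next to each other. Its log2 fold change was -0.46 (-0.68 to -0.24, unadjusted p = 0.000543 and adjusted p = 1 with edgeR). Nr4a3 was between 134 and 153 RPM across WTNT and between 118 and 134 RPM across TGNT rats, again without overlap, and its log2 fold change was -0.21 (-0.34 to -0.08). Fosb, a partner of Jun proteins in AP-1, was at 13.9, 12.2, 16.9, 15 and 13.9 RPM in WTNT and at 12.1, 10.9, 11.2, 9.08 and 11.3 RPM in TGNT rats. It did not overlap either, although WTNT replicate 2 and TGNT replicate 1 were almost level, and its log2 fold change was -0.39 (-0.64 to -0.13).

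**Figure D2:**
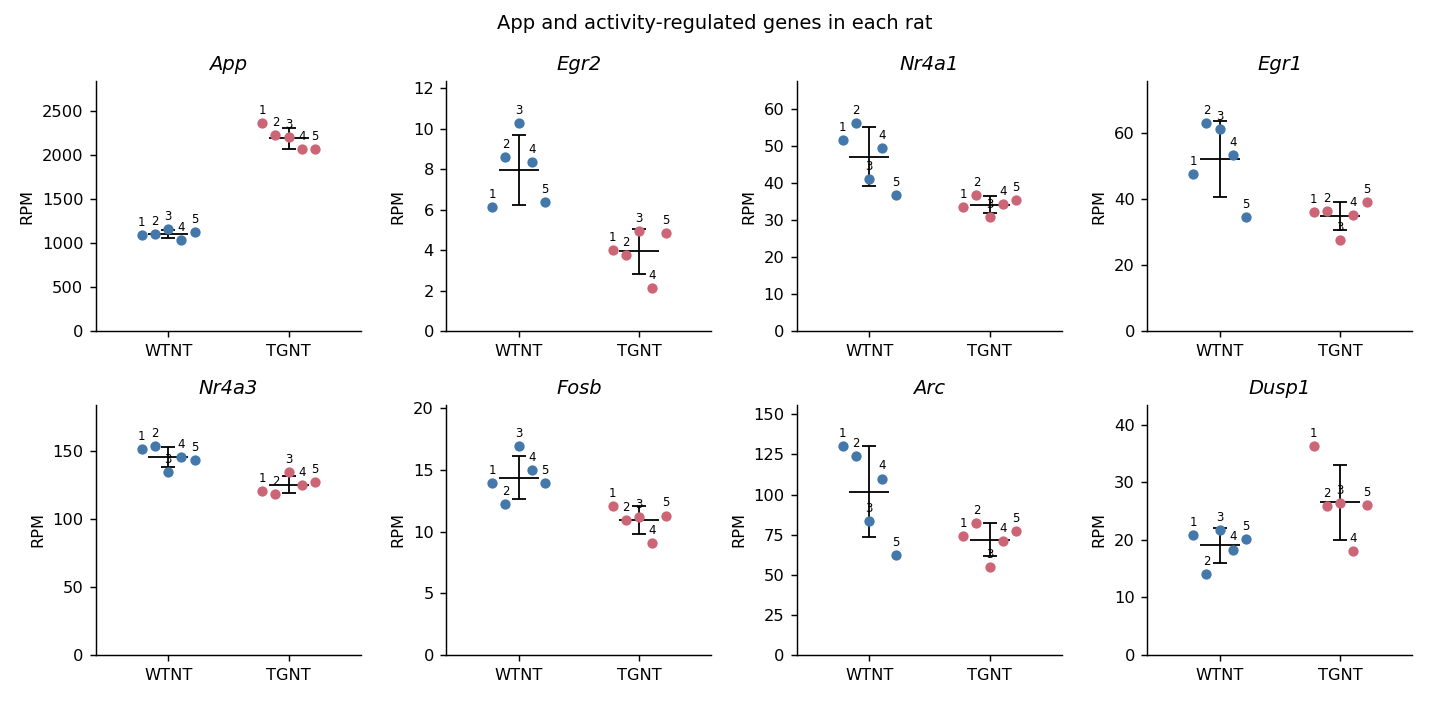
RPM of App, 5 immediate early transcription factors (Egr2, Nr4a1, Egr1, Nr4a3 and Fosb), and the effectors Arc and Dusp1 in each rat (points numbered by replicate), with the mean and SD of each group. TGNT rats lie apart and above for App, lie below for Egr2, and lie above 1 or more WTNT rats for Egr1 and Arc.

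The upstream sequences of 4 of these genes are shown because 3 were lower together and Dusp1 was higher. Promoters are of RefSeq on the GRCr8 assembly, 250 bases up to the transcription start, 5′ to 3′ on the strand of the gene, and capitals mark CArG boxes, the motif of serum response factor, and the CRE half-sites TGACG or CGTCA of CREB, searched on both strands.
Egr2 (chr20:21054442-21054691, minus strand): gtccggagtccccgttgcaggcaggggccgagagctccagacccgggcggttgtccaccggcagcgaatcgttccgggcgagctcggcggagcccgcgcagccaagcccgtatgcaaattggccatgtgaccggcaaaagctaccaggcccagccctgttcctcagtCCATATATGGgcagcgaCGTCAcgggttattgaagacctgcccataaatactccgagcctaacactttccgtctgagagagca
Egr1 (chr18:26736828-26737077, plus strand): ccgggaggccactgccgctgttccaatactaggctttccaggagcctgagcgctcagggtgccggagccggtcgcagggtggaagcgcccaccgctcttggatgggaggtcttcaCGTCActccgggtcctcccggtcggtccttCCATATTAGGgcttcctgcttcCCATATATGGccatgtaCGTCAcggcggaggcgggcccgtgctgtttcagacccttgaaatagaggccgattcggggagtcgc
Nr4a1 (chr7:134259888-134260137, plus strand): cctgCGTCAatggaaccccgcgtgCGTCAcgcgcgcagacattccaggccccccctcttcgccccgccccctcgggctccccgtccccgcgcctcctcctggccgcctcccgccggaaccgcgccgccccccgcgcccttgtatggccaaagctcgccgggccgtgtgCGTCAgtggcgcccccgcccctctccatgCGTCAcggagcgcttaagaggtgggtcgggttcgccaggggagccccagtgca
Dusp1 (chr10:17184603-17184852, plus strand): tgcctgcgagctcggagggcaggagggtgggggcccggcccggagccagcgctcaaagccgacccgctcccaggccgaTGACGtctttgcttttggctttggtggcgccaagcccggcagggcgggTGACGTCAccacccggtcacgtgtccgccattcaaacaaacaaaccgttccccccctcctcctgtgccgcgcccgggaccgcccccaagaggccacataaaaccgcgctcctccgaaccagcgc
Egr2 had 1 CArG box and 1 half-site, Egr1 had 2 of each, Nr4a1 had 4 half-sites, and Dusp1 had 3, of which 2 overlap in the full site TGACGTCA. Among all 33469 promoters of this length, 1.5% held a CArG box, 18.2% a half-site and 1.59% a full site. The 18 immediate early genes in the reference had 20 promoters, of which 15% held a CArG box, 75% a half-site and 30% a full site. The 21 effector genes had 27 promoters, with shares of 7.41%, 44.4% and 14.8%. Matches to letters are a description and do not show binding.

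Activity-dependent effectors, synaptic and signalling genes that firing induces, leaned the same way. Of 27 members, 20 were lower and 7 higher, with 7 lower and 1 higher at an unadjusted p under 0.05, against 1.9% and 1.99% of all genes. Their median log2 fold change was -0.12, from -0.18 without WTNT replicate 3 to -0.11 without WTNT replicate 1, and it kept its sign with every scaling. The number of lower genes at that p was 10 without WTNT replicate 3 and 4 without TGNT replicate 1. Homer1, the most read member, was between 277 and 341 RPM across WTNT and between 260 and 323 RPM across TGNT rats.

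Arc, which removes AMPA receptors from active synapses, was at 130, 124, 83.4, 110 and 62.0 RPM in WTNT and at 73.9, 82.2, 55.0, 70.9 and 77.4 RPM in TGNT rats. WTNT replicates 1, 2 and 4 were high, WTNT replicate 3 was just above the TGNT rats, and WTNT replicate 5 was among them. The log2 fold change was -0.50 (-0.85 to -0.15, unadjusted p = 0.00843 and adjusted p = 1 with edgeR). Dusp5, a phosphatase that takes ERK out of action in the nucleus, was at 12.4, 14.1, 9.76, 12.8 and 11.8 RPM in WTNT and at 4.24, 7.84, 8.11, 9.21 and 12.1 RPM in TGNT rats, and TGNT replicate 5 was the only one within the WTNT range. Its log2 fold change was -0.55 (-0.98 to -0.11). Trib1, a pseudokinase, was below every WTNT rat in all 5 TGNT rats at 15 to 43 counts, with a log2 fold change of -0.55 (-0.96 to -0.14). Dusp1, a phosphatase of stress-activated kinases that glucocorticoids also induce, differed in the other direction. It was at 20.9, 14.1, 21.7, 18.3 and 20.2 RPM in WTNT and at 36.2, 25.8, 26.4, 18.0 and 26.0 RPM in TGNT rats. TGNT replicate 1 was the highest and TGNT replicate 4 lay inside the WTNT range, and the log2 fold change was 0.49 (0.15 to 0.83, unadjusted p = 0.00728 and adjusted p = 1 with edgeR).

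Genes of the glucocorticoid receptors and their response had the lowest median of the 53 lists with a median, at -0.20, next to -0.19 for myelin genes. Myelin genes were the lower of the 2 lists at a mean of at least 50 counts (-0.19 against -0.17). They were also lower without some of the rats, such as WTNT replicate 5 (-0.31 against -0.26). Of the 14 glucocorticoid genes, 13 were lower and 1 was higher, and 2 were lower at an unadjusted p under 0.05, against 1.9% of all genes. The median ran from -0.27 without WTNT replicate 3 to -0.16 without WTNT replicate 2 and was negative with every scaling, and the 2 members were 6 without WTNT replicate 3, 4 without WTNT replicate 5 or TGNT replicate 4, and 1 without WTNT replicate 1, 2 or 4 or TGNT replicate 2 or 3. Cdkn1a, the cell cycle inhibitor p21, was at 7.13, 7.06, 7.35, 4.44 and 5.26 RPM in WTNT and at 2.25, 5.28, 3.17, 4.14 and 4.11 RPM in TGNT rats. TGNT replicate 2 was the only TGNT rat above the lowest WTNT rat. Its log2 fold change was -0.74 (-1.20 to -0.27, unadjusted p = 0.00416 and adjusted p = 1 with edgeR). Klf9, a transcription factor induced by corticosterone, was at 192, 175, 129, 182 and 125 RPM in WTNT and at 143, 131, 120, 137 and 143 RPM in TGNT rats, a log2 fold change of -0.25 (-0.48 to -0.01). Klf9 and Nr3c2, the mineralocorticoid receptor and most read member, divided the WTNT rats: Nr3c2 was at 463, 450 and 432 RPM in WTNT replicates 1, 2 and 4, at 271 and 279 RPM in WTNT replicates 3 and 5, and at 300 to 373 RPM in TGNT rats. Nr3c2 is also a marker of hippocampal pyramidal cells, and how much of the list follows the make-up of the samples was not tested. Dusp1, which glucocorticoids also induce and which was higher, is not a member of this list.

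Markers of the hippocampal subfields showed where the rats differed. In bulk samples fewer cells of a type and less RNA per cell cannot be told apart. The 8 CA1 markers had a median log2 fold change of -0.12, with 6 lower and 2 higher, and from -0.18 without WTNT replicate 3 to -0.04 without WTNT replicate 2. The 11 markers of CA2 and CA3 had a median of -0.16, with 8 lower and 3 higher, and from -0.23 without WTNT replicate 3 to -0.08 without WTNT replicate 1. Both kept their sign with every scaling, and 0 of these 19 genes were lower at an unadjusted p under 0.05, but 3 of CA2 and CA3 were without WTNT replicate 3 and 2 of CA1 without TGNT replicate 2. Man1a1, a Golgi mannosidase of the CA1 list, was higher at that p (0.21, 0.03 to 0.39). Wfs1, the most read CA1 marker, was at 291, 346, 222, 324 and 115 RPM in WTNT and at 123, 264, 78.6, 269 and 226 RPM in TGNT rats. Both groups held rats with little Wfs1, namely WTNT replicate 5 and TGNT replicates 1 and 3.

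Dentate granule cell markers gave no stable direction. Of 8 markers 4 were higher and 4 lower, and the median of -0.01 became -0.22 without WTNT replicate 3 and 0.17 without WTNT replicate 1, and it was also positive without WTNT replicate 2 or 4 and TGNT replicate 3 or 5. Summed over the 10 markers in the table, the level was 641, 518, 275, 590 and 460 RPM in WTNT and 705, 448, 462, 442 and 477 RPM in TGNT rats. WTNT replicate 3 was lowest and TGNT replicate 1 was highest. Calb1, the calcium buffer calbindin and the most read of them, was at 114, 93.8, 88.2, 103 and 151 RPM in WTNT and at 185, 134, 143, 108 and 119 RPM in TGNT rats, a log2 fold change of 0.33 (0.02 to 0.65, unadjusted p = 0.0397 and adjusted p = 1 with edgeR). Progenitor and immature neuron markers, which mark adult neurogenesis in the dentate gyrus, were lower in 7 and higher in 4 of 11, with a median of -0.03 and no member at an unadjusted p under 0.05. Without WTNT replicate 3 or TGNT replicate 2 their median was -0.11, and 1 member was lower at that p. It was -0.0069 without TGNT replicate 1.

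Markers of tissue next to the hippocampus differed between rats. Those of the subiculum and adjoining cortex summed to 401, 494, 720, 436 and 682 RPM in WTNT and to 561, 642, 668, 566 and 589 RPM in TGNT rats. WTNT replicates 3 and 5 were above, and WTNT replicates 1, 2 and 4 below, every TGNT rat. Etv1 was the most read of the list. The median of its 10 genes was 0.05, and it was -0.04 without WTNT replicate 1, -0.02 without WTNT replicate 2, -0.05 without WTNT replicate 4 and -0.04 without TGNT replicate 4, and 0.18 without WTNT replicate 3. Fezf2, a factor of deep-layer cortical neurons, was at 15.4, 18.2, 26.4, 14.0 and 30.3 RPM in WTNT and at 27.8, 29.7, 34.2, 22.3 and 25.5 RPM in TGNT rats (log2 fold change 0.42, 0.03 to 0.82). Thalamus and habenula markers summed to between 30.0 and 47.7 RPM over the 10 rats, and choroid plexus markers to between 15.5 and 32.1 RPM. Of 6 and 4 such markers with a mean of at least 10 counts, 3 and 2 were higher, and both medians, 0.01 and 0.06, changed sign with single rats, to -0.12 without WTNT replicate 1 and to -0.03 without WTNT replicate 3. Ttr, the transthyretin of choroid plexus, was at 0.25 to 11.7 RPM, so that these samples held little of that tissue. Their part in the other differences was not tested.

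**Figure D3:**
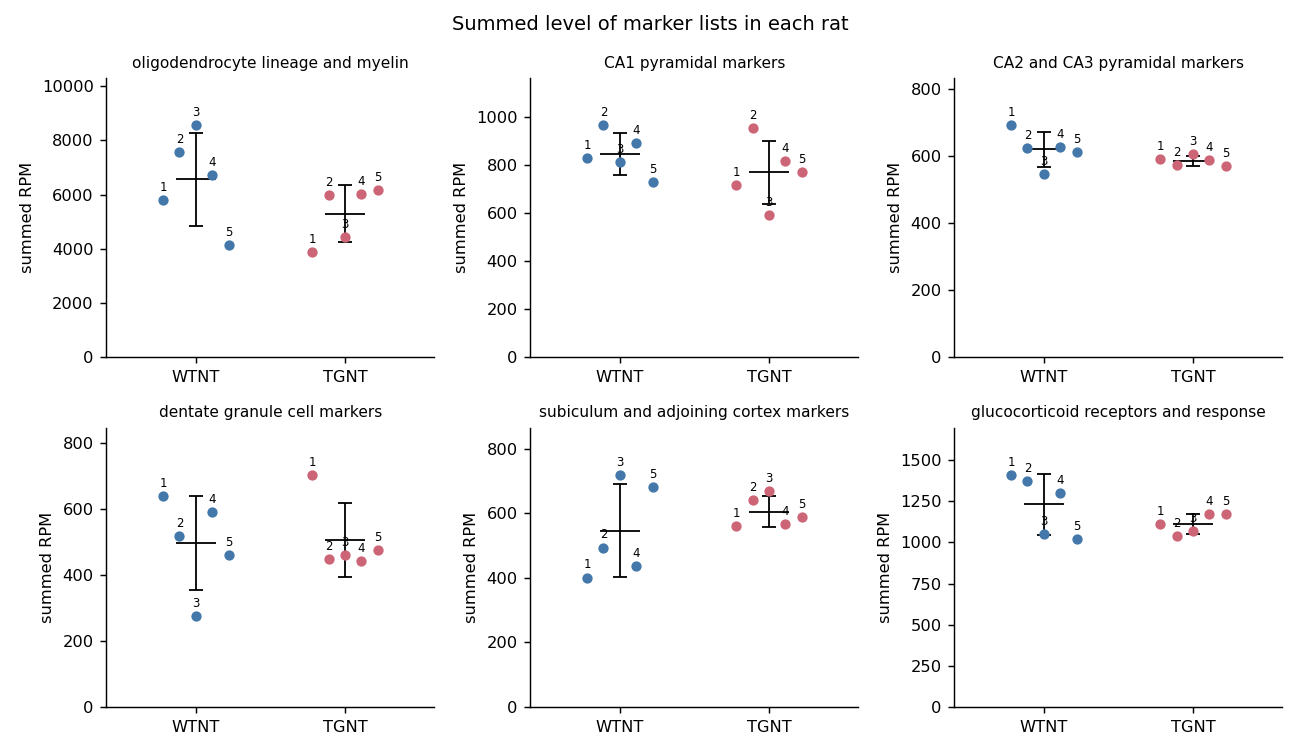
Summed RPM of 6 gene lists in each rat (points numbered by replicate), with the mean and SD of each group. WTNT rats spread more widely than TGNT rats in the subiculum list (401 to 720 against 561 to 668 RPM) and in the glucocorticoid list (1021 to 1413 against 1040 to 1173 RPM). The CA1 list went the other way (732 to 969 RPM in WTNT against 595 to 954 RPM in TGNT rats).

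The genes that varied most between rats of one genotype followed the same line. Among 9243 genes averaging 50 or more counts, the median SD of log2 (RPM + 1) was 0.137 in WTNT and 0.131 in TGNT rats, and it was larger in WTNT for 5090 genes, or 55.1%. WTNT replicate 3 was the rat farthest from its group mean for 18.1% of these genes, TGNT replicate 2 for 15.2% and WTNT replicate 5 for 14.4%. Plagl1, an imprinted zinc finger gene, was at 8.45, 5.62, 63.6, 5.97 and 72.3 RPM in WTNT and at 22.3, 40.3, 69.1, 22 and 43.5 RPM in TGNT rats. Htr2c, a serotonin receptor, was at 19.6, 43.5, 205, 37.7 and 227 RPM in WTNT and at 133, 161, 246, 110 and 187 RPM in TGNT rats. In both genes WTNT replicates 3 and 5 were high, WTNT replicates 1, 2 and 4 low, and the TGNT rats mostly between them. Tacr3, a neurokinin receptor, and Kcnf1, a modifier of potassium channels, had the same order, with WTNT replicates 1, 2 and 4 at 0.683 to 1.84 RPM for Tacr3 and at 2.98 to 6.95 RPM for Kcnf1. Robo3, an axon guidance receptor, was high where these were low, at 13.3, 16.7 and 16.9 RPM in WTNT replicates 1, 2 and 4 and at 2.79 and 2.71 RPM in WTNT replicates 3 and 5. Ppl, which encodes periplakin, was at 12.4 to 16.2 RPM and at 1.91 to 3.42 RPM in the same rats. On that log2 scale the SD of Tacr3 was 1.48 in WTNT and 0.33 in TGNT rats, and that of Kcnf1 was 1.33 and 0.30.

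A few genes had a pattern of their own. C1ql2, a secreted synaptic protein of mossy fibres, was at 2.54 RPM in WTNT replicate 3 and at 14.2 to 29.2 RPM in the other 4 WTNT rats, beside the low dentate markers of that rat. The synapse organisers Cbln1 and Cbln4 were high in WTNT replicates 3 and 5 and TGNT replicates 2 and 4, with Cbln4 at 42.7, 29.2, 34.7 and 29.2 RPM there and at 7.17 to 12 RPM in the other 6 rats. Ybx1-ps3, a pseudogene, was at 69.1 RPM in WTNT replicate 1 and at 51.7, 39.4 and 27.5 RPM in TGNT replicates 1, 2 and 3, and at 0 in the other 6 rats. It was the gene with the largest spread, with a residual SD of 2.83. None of these genes, nor Nxph3 and Rxrg, the others of the 12 with the largest spread, had an unadjusted p under 0.05. Their choice by spread within groups makes a low p unlikely, so this does not show that the genotypes were alike.

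**Figure D4:**
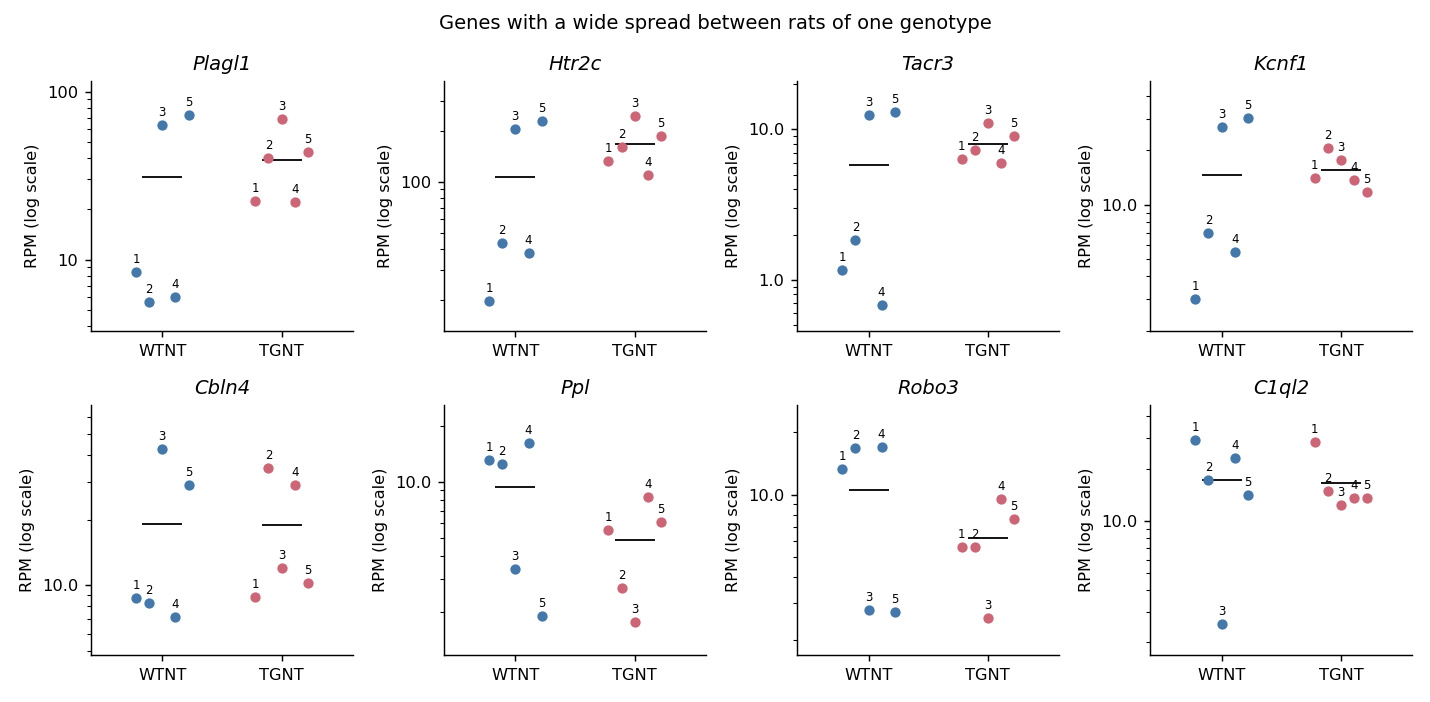
RPM (log axis) in each rat (points numbered by replicate) of 8 of the 12 genes with the largest spread within groups, with a line at the mean of each group. WTNT replicates 3 and 5 are high for Plagl1, Htr2c, Tacr3, Kcnf1 and Cbln4 and low for Ppl and Robo3, and TGNT rats lie mostly between them and WTNT replicates 1, 2 and 4.

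Genes of neuronal signalling were counted by transmitter. Glutamate receptors and their scaffolds were lower in 30 and higher in 15 of 45, with a median log2 fold change of -0.06 that was negative with every scaling and ran from -0.11 without WTNT replicate 3 to -0.05 without WTNT replicate 1. GABA and glycine genes were higher in 18 and lower in 6 of 24, with a median of 0.04 that ran from 0.03 to 0.06. At an unadjusted p under 0.05 there were 1 higher and 1 lower glutamate gene, near the 1.99% and 1.9% of all genes, but 3 higher and 13 lower ones without WTNT replicate 3 and 4 lower ones without TGNT replicate 2. Over the full table the 258 lower genes at that p also became more without these rats, 567 without WTNT replicate 3 and 414 without TGNT replicate 2. Dlgap4, a scaffold of the postsynaptic density, was at 133, 137, 129, 129 and 137 RPM in WTNT and at 125, 124, 122, 121 and 119 RPM in TGNT rats. Each of the 5 TGNT rats was lower than any WTNT rat, although by little, and its log2 fold change was -0.11 (-0.22 to -0.01). Grm7, a presynaptic metabotropic receptor, was higher (0.14, 0.01 to 0.28), and Gabrg3, a subunit of the GABA-A receptor, was at 6.46, 5.93, 11.2, 6.49 and 12.9 RPM in WTNT and at 13.1, 12.4, 14.8, 9.08 and 11.5 RPM in TGNT rats (0.51, 0.06 to 0.96). WTNT replicates 3 and 5 were again among the TGNT rats. Gria2 and Gabbr1, the most read genes of the 2 lists, were at 1839 to 2370 RPM and at 1108 to 1341 RPM over the 10 rats.

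Receptors for acetylcholine, monoamines, histamine and adenosine were higher in 27 and lower in 12 of 39. Their median log2 fold change was 0.10, between 0.06 (without TGNT replicate 1) and 0.17 (without WTNT replicate 5), and positive with every scaling. At an unadjusted p under 0.05 there were 3 higher and 1 lower, against 1.99% and 1.9% of all genes, and there were 9 and 2 without WTNT replicate 5, 5 and 3 without WTNT replicate 3, and 5 and 0 without TGNT replicate 1. All 4 were serotonin receptors. Htr2a was at 3.48, 5.11, 6.21, 3.24 and 9.08 RPM in WTNT and at 7.49, 6.48, 10.8, 7.47 and 9.97 RPM in TGNT rats. WTNT replicate 5 was within the TGNT range and WTNT replicates 1 and 4 were lowest, and the log2 fold change was 0.64 (0.13 to 1.15). Those of Htr1f and Htr5a were 0.59 (0.12 to 1.06) and 0.62 (0.10 to 1.13), and that of Htr6, at 6 to 26 counts, was -0.71 (-1.37 to -0.05). Among WTNT rats, replicates 3 and 5 were highest in Htr2a and also in the summed subiculum and cortex markers, and the part of that tissue was not tested.

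Other neuronal groups leaned in different directions. Interneuron and neuropeptide genes were higher in 15 and lower in 7 of 22, with a median of 0.12 (0.08 to 0.20 with each rat left out), while Chgb, the most read, was the 1 gene at an unadjusted p under 0.05 (against 1.99% of all genes higher and 1.9% lower) and was lower, between 592 and 791 RPM across WTNT and between 522 and 666 RPM across TGNT rats. Without WTNT replicate 3 or 5, 4 genes of this list were higher at that p. Synaptic and axonal adhesion genes were higher in 19 and lower in 10 of 29, with a median of 0.07 (0.02 without WTNT replicate 4 to 0.12 without WTNT replicate 5). Among them Cntn5, a contactin, and Lrrtm3, a postsynaptic organiser, were higher (0.44, 0.07 to 0.81, and 0.29, 0.03 to 0.54), and Nfasc, which builds nodes of Ranvier, was lower (-0.17, -0.31 to -0.03). The 2 higher genes at that p were 4 without WTNT replicate 3 and 0 without WTNT replicate 1 or 2. Genes of synaptic vesicles and release were lower in 24 and higher in 17 of 41, with a median of -0.02 (0.0044 without TGNT replicate 5), and Erc1, an active zone protein, was lower (-0.25, -0.44 to -0.06), the 1 such gene at that p, where 5 were lower without WTNT replicate 3. Markers of mature neurons were lower in 11 and higher in 6 of 17, with a median of -0.03 (0.0053 without WTNT replicate 5), and the intervals of all 17 lay within a fold change of 1.5. Neurotrophic factors and receptors were lower in 12 and higher in 6 of 18, with a median of -0.04. Without WTNT replicate 2 the list was even, with 9 higher and 9 lower and a median of -0.0012, and without WTNT replicate 3 the median was -0.08. Cntfr, the receptor of ciliary neurotrophic factor, was higher (0.19, 0.02 to 0.35).

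Ion channels were slightly lower on balance. Potassium channels were lower in 42 and higher in 29 of 71, with a median of -0.03 (0.0031 without WTNT replicate 5), and 4 were lower and 2 higher at an unadjusted p under 0.05 (1.9% and 1.99% of all genes), or 8 and 4 without WTNT replicate 5 and 8 and 3 without WTNT replicate 3. Kcna1, a channel of axons, was at 111, 114, 99.9, 111 and 80.5 RPM in WTNT and at 91.5, 73.1, 83.1, 94.9 and 86.8 RPM in TGNT rats. WTNT replicate 5 was within the TGNT range, and the log2 fold change was -0.26 (-0.46 to -0.06). That of Kcnab3, a beta subunit, was -0.49 (-0.85 to -0.13). Sodium and calcium channels were lower in 15 and higher in 10 of 25, with a median of -0.03. None was lower at an unadjusted p under 0.05, but 6 were without WTNT replicate 3, 3 without WTNT replicate 5 and 1 without TGNT replicate 4. Scn9a, a sodium channel known from pain neurons, was higher (0.57, 0.08 to 1.07).

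Genes of protein synthesis and respiration lay higher in TGNT rats by a few percent. Cytosolic ribosomal proteins were higher in 67 and lower in 12 of 79, and their median log2 fold change of 0.07 ran from 0.04 without TGNT replicate 4 to 0.09 without TGNT replicate 1. Mitochondrial ribosomal proteins were higher in 52 and lower in 17 of 69 (median 0.07, 0.04 to 0.07 with each rat left out), and nuclear-encoded subunits of oxidative phosphorylation were higher in 58 and lower in 17 of 75 (median 0.06, 0.03 to 0.08). All 3 medians were positive with every scaling tried, beside 0.0063 for all genes. The intervals of all 79 cytosolic ribosomal proteins, of 65 mitochondrial ones and of 73 respiratory subunits lay within a fold change of 1.5. Of the cytosolic proteins 5 were higher and 0 lower at an unadjusted p under 0.05, against 1.99% and 1.9% of all genes. That count rested on the rats used, with 15 without TGNT replicate 1, 10 without TGNT replicate 2, 2 without WTNT replicate 5 and 1 without WTNT replicate 4, TGNT replicate 3, TGNT replicate 4 or TGNT replicate 5.

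The sums show how small these differences were. Cytosolic ribosomal proteins together made 10741, 10523, 10502, 10056 and 9966 RPM in WTNT and 10441, 10466, 10452, 11270 and 11235 RPM in TGNT rats. TGNT replicates 4 and 5 were above all others, and the other 3 TGNT rats were inside the WTNT range. Mitochondrial ribosomal proteins summed to 1469, 1410, 1460, 1406 and 1448 RPM in WTNT and to 1503, 1466, 1470, 1497 and 1527 RPM in TGNT rats, and 4 of 5 TGNT rats were above every WTNT rat. Rpl32 was at 78.4, 96.2, 92.4, 79.5 and 84.1 RPM in WTNT and at 89.0, 89.9, 107, 114 and 111 RPM in TGNT rats, a log2 fold change of 0.25 (0.07 to 0.44). Those of Rpl15 and Rpl35 were 0.15 and 0.13, and Rpl4, the most read, was at 331 to 391 RPM over the 10 rats.

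Mrpl22, a protein of the large mitochondrial ribosomal subunit, was at 5.97, 5.32, 7.48, 7.17 and 5.58 RPM in WTNT and at 9.11, 8.75, 7.73, 8.67 and 7.97 RPM in TGNT rats. The groups did not overlap, and its log2 fold change was 0.43 (0.14 to 0.72, unadjusted p = 0.00645 and adjusted p = 1 with edgeR). Ndufa11 and Ndufa7, both of complex I, differed in opposite directions. Ndufa11 was at 14.4, 14.5, 18.6, 14.7 and 15.1 RPM in WTNT and at 18.9, 21.3, 18.5, 20.7 and 20.1 RPM in TGNT rats (0.36, 0.15 to 0.58), with WTNT replicate 3 as the one WTNT rat at the TGNT level. Ndufa7 had a log2 fold change of -0.23 (-0.46 to -0.0043). No symbol in the table had the prefix Mt- of genes encoded in mitochondrial DNA, and that side of the respiratory chain was not analysed here.

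Replication-dependent histones were higher in 14 and lower in 3 of 17, with a median log2 fold change of 0.11 that was positive with every scaling and ran from 0.07 without TGNT replicate 2 to 0.16 without TGNT replicate 1. None reached an unadjusted p under 0.05, but 2 did without WTNT replicate 1. Hist1h4b, the most read, was between 49.7 and 65.8 RPM across WTNT and between 51.6 and 67.1 RPM across TGNT rats (0.13, -0.05 to 0.32). Most mRNAs of this family lack a poly(A) tail, so that poly(A) libraries hold a small part of them. Hist1h2aa, an H2A variant of testis that lies below the 10 counts, had 2 to 21 estimated counts, given as fractions in every rat, which is how reads shared between genes appear. It was between 0.319 and 0.761 RPM across WTNT and between 1.36 and 2.62 RPM across TGNT rats, without overlap (1.96, 1.23 to 2.68, adjusted p = 0.213 with the quasi-likelihood test of edgeR, but 0.000935 where the exact and 0.000258 where the likelihood ratio test was used). Replacement histones, which neurons express outside the cell cycle, were higher in 5 and lower in 2 of 7, with a median of 0.04 that was -0.0017 without TGNT replicate 2.

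Genes of protein quality control differed little. In the eIF2 pathway, which slows translation under stress, 7 genes were higher and 7 lower, 0 had an unadjusted p under 0.05, and the intervals of all 14 lay within a fold change of 1.5. Eif2s1, the gene of eIF2alpha, was between 68.8 and 77.4 RPM across WTNT and between 68.9 and 82.3 RPM across TGNT rats. Targets of ATF4 and the unfolded protein response were higher in 15 and lower in 20 of 35, and proteasome subunits in 19 and 20 of 39, with 0 genes at that p in either list, although 2 of the ATF4 list were lower without WTNT replicate 3 or TGNT replicate 2. The medians of these 3 lists were -0.0043, -0.0015 and -0.0021, and each was positive with library size as the scaling. Cytosolic chaperones were lower in 20 and higher in 10 of 30 (median -0.03, negative with every scaling and with each rat left out), with Dnajb5, a co-chaperone of the Hsp40 family, at 140, 143, 92.6, 140 and 84.4 RPM in WTNT and at 102, 98.5, 74.8, 98.6 and 96.1 RPM in TGNT rats (-0.35, -0.65 to -0.05). WTNT replicates 3 and 5 were inside the TGNT range. Antioxidant targets of NRF2 were higher in 16 and lower in 10 of 26 (median 0.04), all 26 within a fold change of 1.5.

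Lysosome and autophagy genes were higher in 27 and lower in 14 of 41, with a median of 0.03 (-0.00033 without WTNT replicate 4). Gla, a lysosomal galactosidase, was higher (0.16, 0.01 to 0.32), and Ulk1, the kinase that starts autophagy, was below every WTNT rat in all TGNT rats, at 53.3 to 56.2 RPM against 56.7 to 64.7 RPM (-0.13, -0.27 to -0.0035). Genes of cholesterol and fatty acid synthesis were higher in 21 and lower in 10 of 31, with a median of 0.04 that was positive with every scaling and with each rat left out. Fdft1, the squalene synthase, was at 102, 117, 116, 109 and 101 RPM in WTNT and at 126, 120, 129, 121 and 119 RPM in TGNT rats. The groups did not overlap, and the log2 fold change was 0.18 (0.05 to 0.31). Fdps, the step before it (0.21, 0.04 to 0.38), and Insig1, a sterol sensor of the pathway (0.21, 0.05 to 0.36), were also higher at an unadjusted p under 0.05 (5 of the list without TGNT replicate 2 or 5), against 1.99% of all genes higher and 1.9% lower, and Abcg1, which exports cholesterol, was lower (-0.13, -0.26 to -0.0028).

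Myelin genes ranged widely between rats. Oligodendrocyte and myelin genes were lower in 20 and higher in 4 of 24, and 4 were lower and 0 higher at an unadjusted p under 0.05, against 1.9% and 1.99% of all genes. The median log2 fold change was -0.19, negative with every scaling, and it was -0.09 without WTNT replicate 3, -0.10 without TGNT replicate 1 and -0.31 without WTNT replicate 5. The 4 lower genes became 10 without WTNT replicate 5, 2 without WTNT replicate 4 and 1 without WTNT replicate 2, WTNT replicate 3, TGNT replicate 1 or TGNT replicate 3. Summed, the list was at 5801, 7568, 8567, 6717 and 4124 RPM in WTNT and at 3869, 5999, 4449, 6009 and 6169 RPM in TGNT rats. WTNT replicate 5 and TGNT replicates 1 and 3 were low, as they were for the CA1 marker Wfs1, and WTNT replicates 2, 3 and 4 were above every TGNT rat.

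Mbp, the myelin basic protein and the most read of the 24, was at 2646, 3383, 3697, 3014 and 1713 RPM in WTNT and at 1697, 2577, 1813, 2402 and 2535 RPM in TGNT rats. In 4 of 5 WTNT rats it was above all TGNT rats, and WTNT replicate 5 was next to the lowest. The log2 fold change was -0.38 (-0.75 to -0.02, unadjusted p = 0.0402 and adjusted p = 1 with edgeR). Bcas1, a gene of oligodendrocytes that begin to myelinate, was at 275, 348, 385, 331 and 219 RPM in WTNT and at 182, 271, 194, 246 and 256 RPM in TGNT rats (-0.43, -0.73 to -0.13). Those of the myelin protein Mobp and of Qdpr, which recycles tetrahydrobiopterin, were -0.38 (-0.74 to -0.01) and -0.27 (-0.52 to -0.01).

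Immune genes differed little. Homeostatic microglia genes were higher in 13 and lower in 3 of 16, with a median of 0.09 that ran from 0.04 without WTNT replicate 4 to 0.10 without TGNT replicate 1, and complement genes were also higher in 13 and lower in 3 of 16 (median 0.07, 0.02 without TGNT replicate 4 to 0.11 without WTNT replicate 3). Both medians were positive with every scaling. The microglial list summed to 535, 549, 558, 492 and 546 RPM in WTNT and to 553, 538, 581, 552 and 566 RPM in TGNT rats, so that the groups overlapped. Selplg, a selectin ligand of microglia, was at 13.1, 11.4, 13.1, 10.6 and 13.2 RPM in WTNT and at 15.7, 15.5, 16.0, 11.9 and 15.2 RPM in TGNT rats. TGNT replicate 4 was the one TGNT rat in the WTNT range, and the log2 fold change was 0.28 (0.04 to 0.53). Clu, clusterin, the most read complement gene and an Alzheimer risk gene, had a log2 fold change of 0.13 (0.0007 to 0.25).

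Genes that microglia switch on around plaques did not follow. Of 10 such genes 4 were higher and 6 lower, and 0 had an unadjusted p under 0.05, which 1.99% of all genes reached as higher and 1.9% as lower. Their median of -0.03 was positive without WTNT replicate 2 or 4 and TGNT replicate 1 or 3, with 0.04 without TGNT replicate 3. Interferon and cytokine response genes were higher in 8 and lower in 7 of 15 (median 0.02, from -0.08 without WTNT replicate 5 to 0.08 without WTNT replicate 2, and negative also without WTNT replicate 1 or 4 and TGNT replicate 3, 4 or 5). Ifi27, an interferon-induced gene, was the 1 member at that p, at 30.7, 31.0, 29.4, 24.4 and 31.1 RPM in WTNT and at 37.2, 35.6, 32.4, 37.0 and 31.9 RPM in TGNT rats, without overlap (0.25, 0.07 to 0.43). Genes of antigen presentation were higher in 13 and lower in 9 of 22 (median 0.10, and 0.03 at a mean of at least 50 counts). The 1 member at that p was RT1-S2, a weakly read class Ib gene. It was lower, between 0.797 and 2.56 RPM across WTNT and between 0.634 and 1.51 RPM across TGNT rats. B2m, the light chain of class I molecules and the most read member, did not reach that p. It was between 266 and 330 RPM across WTNT and between 274 and 338 RPM across TGNT rats.

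Astrocyte genes were even, with 10 higher and 10 lower of 20 and 0 at an unadjusted p under 0.05, but 2 lower without WTNT replicate 5. Their median of 0.01 was -0.02 without WTNT replicate 4, -0.01 without TGNT replicate 2 and -0.02 without TGNT replicate 4. Endothelial genes were lower in 11 and higher in 4 of 15 (median -0.02), all 15 within a fold change of 1.5, and Mfsd2a, a lipid transporter of the blood-brain barrier, was lower (-0.31, -0.55 to -0.06). Genes of pericytes, smooth muscle and fibroblasts were higher in 11 and lower in 6 of 17, with a median of 0.10 (0.01 without TGNT replicate 2). Myh11, the smooth muscle myosin, was at 18.4, 20.9, 18.6, 20.5 and 21.0 RPM in WTNT and at 23.6, 27.6, 27.9, 20.3 and 23.3 RPM in TGNT rats (0.31, 0.09 to 0.52), and Vtn, vitronectin, had a log2 fold change of 0.46 (0.13 to 0.78). Collagens were higher in 11 and lower in 6 of 17 (median 0.08, -0.01 without WTNT replicate 3), and Col18a1, of basement membranes, was lower (-0.56, -0.97 to -0.14). Blood cell genes summed to between 108 and 174 RPM across WTNT and between 128 and 188 RPM across TGNT rats after perfusion, with a median of 0.03 over 5 genes that was -0.10 without TGNT replicate 3 and -0.09 without WTNT replicate 2.

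**Figure D5:**
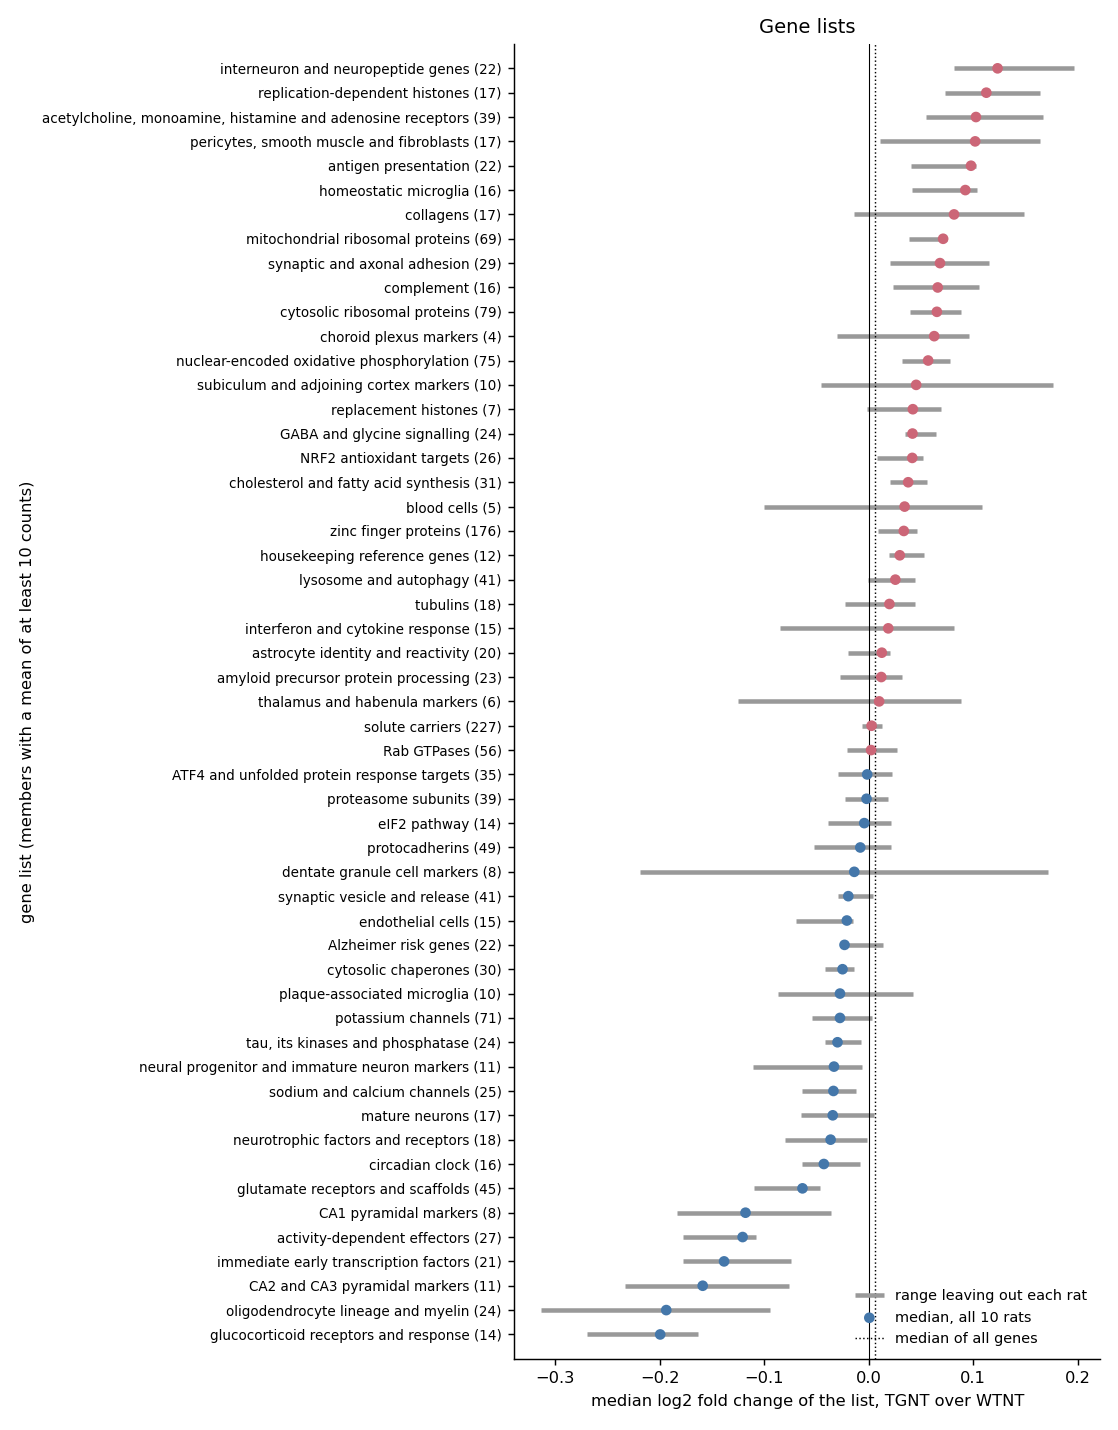
Median log2 fold change of TGNT over WTNT for each of 53 gene lists (red above 0, blue below 0, number of members in brackets), with the range when each rat is left out (grey) and the median of all genes (dotted, 0.0063). Glucocorticoid genes (-0.20) and myelin genes (-0.19) are lowest, interneuron and neuropeptide genes (0.12) highest, and a grey bar that crosses 0 marks a direction that turned without 1 rat.

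Large families gave a background for these groups. Zinc finger proteins, most of them transcriptional repressors, were higher in 110 and lower in 66 of 176, with a median of 0.03 that ran from 0.0086 without TGNT replicate 4 to 0.05 without TGNT replicate 1, and 8 were higher and 5 lower at an unadjusted p under 0.05 (1.99% and 1.9% of all genes), or 3 higher without WTNT replicate 1 and 1 lower without WTNT replicate 2. Zfp865 was above every WTNT rat in all TGNT rats, at 10.7 to 14.1 RPM against 7.79 to 9.82 RPM (0.37, 0.11 to 0.63), and Zfp39 was between 20.6 and 29.7 RPM across WTNT and between 24.6 and 37.0 RPM across TGNT rats (0.38, 0.12 to 0.63). Solute carriers were higher in 116 and lower in 111 of 227, with a median of 0.0027 that was -0.0071 with RLE factors, and 8 were lower and 2 higher at that p (again beside 1.9% and 1.99% of all genes), or 3 lower without TGNT replicate 3 and 8 higher without WTNT replicate 5. Among the lower ones were Slc7a1, an importer of cationic amino acids (-0.22, -0.36 to -0.08), and Slc25a25, a calcium-regulated mitochondrial carrier (-0.28, -0.48 to -0.08). Rab GTPases were higher in 29 and lower in 27 of 56 (median 0.0022, and -0.0075 with RLE factors and -0.00091 with upper quartile factors). Protocadherins were higher in 23 and lower in 26 of 49 (median -0.0081, and 0.0031 with library size only). Tubulins were higher in 10 and lower in 8 of 18 (median 0.02, and -0.0040 without WTNT replicate 3, -0.02 without WTNT replicate 4 and -0.02 without TGNT replicate 3). The table lists 1196 olfactory receptors, of which 0 had a mean of at least 10 counts.

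Further lists were close to the background. Tau, its kinases and its phosphatase were lower in 15 and higher in 9 of 24 (median -0.03), and Map4, a relative of tau, was at 794, 838, 708, 811 and 663 RPM in WTNT and at 674, 694, 642, 654 and 660 RPM in TGNT rats (-0.19, -0.33 to -0.05). Alzheimer risk genes were lower in 13 and higher in 9 of 22 (median -0.02, and 0.01 without WTNT replicate 2). Apoe, the most read of them, was between 963 and 1343 RPM across WTNT and between 909 and 1341 RPM across TGNT rats. Clock genes were lower in 9 and higher in 7 of 16 (median -0.04), and Per1, which light and corticosterone also induce, was lower (-0.26, -0.48 to -0.04). Reference genes of the housekeeping kind were higher in 9 and lower in 3 of 12 (median 0.03), 0 of them at an unadjusted p under 0.05.

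Outside the lists, some genes of low unadjusted p had groups that did not overlap. Fam175a, which encodes Abraxas of a complex that answers DNA breaks, was at 1.66, 2.86, 1.78, 2.39 and 1.91 RPM in WTNT and at 3.12, 4.07, 4.18, 3.74 and 3.99 RPM in TGNT rats. It was weakly read, with 10 to 33 counts, but the groups did not overlap, and its log2 fold change was 0.83 (0.39 to 1.27, unadjusted p = 0.00112 and adjusted p = 1 with edgeR). Zbed5 (0.53, 0.22 to 0.84) and Apopt1, a mitochondrial protein (0.33, 0.13 to 0.53), were without overlap in the same direction. Among lower genes, Kif1c, a kinesin motor, was at 167, 173, 164, 181 and 153 RPM in WTNT and at 127, 158, 131, 128 and 133 RPM in TGNT rats. Only TGNT replicate 2 was inside the WTNT range, and the log2 fold change was -0.30 (-0.46 to -0.15, unadjusted p = 0.000772 and adjusted p = 1 with edgeR). Ptpn11, the phosphatase SHP2 of growth factor signalling (-0.24, -0.38 to -0.10), and Gpd1, a glycerol phosphate dehydrogenase that glucocorticoids induce in oligodendrocytes (-0.28, -0.46 to -0.09), were also lower, and Gpd1 without overlap. Of all 74 genes whose groups did not overlap, 59 had an unadjusted p under 0.05.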

How the data were processed

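Hippocampal mRNA of 5 WTNT and 5 TGNT rats was taken from the expected counts (estimated counts per gene symbol, not normalized) that the authors deposited. Levels are a signal, RPM that the authors scaled with TMM factors over these 10 rats. The submitters' processing notes name bcl2fastq 2.17, Bowtie2 2.1.0, RSEM 1.2.15, edgeR and rn6. Rounded counts of all 17168 genes went into the quasi-likelihood F test (R 4.3.3, edgeR 4.0.16, TMM factors, no covariate) with Benjamini-Hochberg adjustment, and intervals are 95% intervals of that fit. RPM means were also compared by exact permutation. Alternatives were other scalings, count filters, thresholds and tests (DESeq2 1.42.0, limma 3.58.1, edgeR exact and likelihood ratio tests), a replicate block, and fits without each rat. Genes were named where they were called, given by the study, among the 15 higher and 15 lower of lowest p, among the 4 of lowest p or the most read of a list, or among the 12 of largest spread, and of these 186 the text describes a part. The other called gene is not reported here. Members and the 55 lists were chosen with earlier results of these data known, and lists were described, not tested.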

Additional observations from a re-analysis of the deposited data

Results flagged for a closer look

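In 11 of 212 groups of 5 rats, 1 rat lay far from the other 4. About 1 in 20, or 10.6, would do so by chance in independent groups that were not selected. Here some genes were named for a wide spread or a low p, so that number is no measure of chance for them. The summed dentate granule cell markers were at 705 RPM in TGNT replicate 1 and at 477 RPM in the next TGNT rat. C1ql2 was at 28.6 RPM in TGNT replicate 1 (next 14.8), and Nxph3, a neurexophilin, at 23.5 RPM in TGNT replicate 2 (next 12.3). Ybx1-ps3 was at 69.1 RPM in WTNT replicate 1 and at 0 in the other WTNT rats. Ifi27 was at 24.4 RPM in WTNT replicate 4 (next 29.4), Ndufa11 at 18.6 RPM in WTNT replicate 3 (next 15.1) and Per1 at 48.2 RPM in WTNT replicate 1 (next 37.7). Dnajb5 was at 74.8 RPM in TGNT replicate 3 (next 96.1), Kif1c at 158 RPM in TGNT replicate 2 (next 133), Selplg at 11.9 RPM in TGNT replicate 4 (next 15.2) and Zfp865 at 14.1 RPM in TGNT replicate 1 (next 11.2). The cause of these values was not tested.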

How the results depend on the processing

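The thresholds called 2 genes under every alternative except the edgeR exact and likelihood ratio tests, which called 4, with Egr2 (adjusted p = 0.0216 and 0.0168 with edgeR) and Hist1h2aa (adjusted p = 0.000935 and 0.000258 with edgeR). None of 1489 log2 fold changes under alternatives changed sign, in the 71 genes besides App whose log2 fold change the text gives. Genes given by level only were not among them. Of the 71, 70 had an unadjusted p under 0.05 with edgeR in these same data. A change of sign was thus unlikely from the start, and its absence says little. Of 741 list medians 81, in 23 of 53 lists, had the other sign. The 296 higher genes at an unadjusted p under 0.05 were 194 with at least 10 counts in every rat, 176 with DESeq2 (240 lower), 48 at a p under 0.01, and 180 to 462 with each rat left out. The 258 lower genes were 33 at a p under 0.01 and 172 to 567 with each rat left out. The median log2 fold change was -0.00362 with RLE factors, 0.0167 with library size only, -0.000894 with filterByExpr, 0.000237 with at least 10 counts in every rat, -0.00341 with DESeq2, and -0.00451 to 0.00838 with each rat left out. The share of intervals within a fold change of 1.5 was 88.9% with at least 10 counts in every rat, 95.2% at a mean of at least 50 counts, and 80.5% to 82.5% with each rat left out. At that mean 25 genes were higher without overlap. With a replicate block 2 genes were called and 304 higher and 249 lower genes had an unadjusted p under 0.05. Of 5 rats, 2 correlated best with the rat of their own number. So few rats cannot tell whether the numbers pair rats. The cause of these changes was not tested. Depth limits the weakly read genes most.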
